A study of Mus musculus with 23 samples.

Results

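The lysosomal genes described here are 44 genes for acid hydrolases, their cofactors, lysosomal membrane proteins and the transcription factor Tfeb, of 20018 gene symbols matched on the array. They were selected on earlier results of these same data, in which several of them had moved at the top dose, so their dose differences are a description of chosen genes and support nothing by themselves. Of the 44, 43 were measured and tested among 19898 genes. The exception was Galc, a galactosylceramidase, whose probe was well above background on 1 of 23 arrays.

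The series asked how furan, a volatile compound formed in heated food that the liver converts to a reactive dialdehyde, alters gene expression in mouse liver on the way to hepatocellular carcinoma. Whole liver came from female B6C3F1 mice, a hybrid strain bought at 5 to 6 weeks of age, which received furan in corn oil, or corn oil alone as the control, by gavage for 21 days and were killed 4 h after the last dose. Controls, the 2 mg/kg group and the 8 mg/kg group each held 5 animals, while 4 animals received 1 mg/kg and 4 received 4 mg/kg, with 1 array per animal. Each array set liver RNA, in Cy5, against a universal mouse reference RNA, in Cy3, and every value below is a log2 ratio of liver to reference, or a difference between such ratios.

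Lysosomes are acidic organelles in which hydrolases break down glycoproteins, glycosaminoglycans, sphingolipids, glycogen, esterified lipids and proteins delivered by endocytosis or autophagy. Most hydrolases reach them with a mannose 6-phosphate tag, a proton pump keeps them acidic, and loss of a single enzyme causes a storage disease. Tfeb and its relative Tfe3 switch on many lysosomal genes through an E-box, CACGTG, near their starts, and the calcium channel Mcoln1 takes part in activating Tfeb. In liver, hepatocytes and Kupffer cells are both rich in lysosomes. In whole liver, fewer cells of a type and less RNA per cell cannot be told apart.

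Promoter windows from RefSeq (build GRCm38.p6; 250 bases before to 50 after each gene's start) were matched for 38 of the 44 genes. The E-box CACGTG, which reads the same on both strands, stood in the windows of 13 of the 38, or 34.2%, against 8.09% of all 27025 genes with a window. The extended form GTCACGTG, searched on both strands and overlapping the E-box by construction, stood in 11 (28.9%, against 2.55% of all genes), and the palindrome TCACGTGA in 5 (13.2%, against 1.12%), namely Cln3, Ctsa, Ctsd, Gla and Mcoln1. A match is a description of letters, and binding was not measured.

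The 250 bases before the start are shown for Mcoln1, which holds 2 E-boxes, and for Man2b1, which holds none. Man2b1 had the largest difference at 8 mg/kg by the probe used for each gene. They are written 5′ to 3′ on the gene's own strand, with each CACGTG in capitals.
Mcoln1 (chr8:3500269-3500518, plus strand): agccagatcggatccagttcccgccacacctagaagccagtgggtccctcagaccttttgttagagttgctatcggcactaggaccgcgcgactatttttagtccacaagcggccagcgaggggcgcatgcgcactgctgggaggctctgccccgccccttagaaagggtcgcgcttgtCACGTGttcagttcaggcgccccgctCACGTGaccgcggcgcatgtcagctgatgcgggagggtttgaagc
Man2b1 (chr8:85083019-85083268, plus strand): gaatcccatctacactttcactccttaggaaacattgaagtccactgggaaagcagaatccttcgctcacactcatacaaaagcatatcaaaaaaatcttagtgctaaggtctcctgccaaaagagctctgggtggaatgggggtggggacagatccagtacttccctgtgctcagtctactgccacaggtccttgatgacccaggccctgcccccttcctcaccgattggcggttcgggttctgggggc

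For the other 12 members with the motif, 30 bases around 1 E-box are shown in the same way, beginning with Naglu and Ctsl, which were also among the lower genes below. Lamp1 held 4 E-boxes in its window, of which the 1 shown begins 28 bases before the start.
Naglu (chr11:101070009-101070038, plus strand): caaccttcaggtCACGTGgcccgaggtcgg
Ctsl (chr13:64370739-64370768, minus strand): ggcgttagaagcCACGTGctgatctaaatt
Ctsa (chr2:164833749-164833778, plus strand): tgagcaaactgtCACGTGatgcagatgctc
Cln3 (chr7:126583340-126583369, minus strand): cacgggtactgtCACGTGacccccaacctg
Ctsd (chr7:142387908-142387937, minus strand): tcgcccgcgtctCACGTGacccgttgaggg
Gla (chrX:134601182-134601211, minus strand): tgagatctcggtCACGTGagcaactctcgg
Glb1 (chr9:114401018-114401047, plus strand): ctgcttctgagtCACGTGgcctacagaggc
Lamp1 (chr8:13159121-13159150, plus strand): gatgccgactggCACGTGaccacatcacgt
Sgsh (chr11:119355522-119355551, minus strand): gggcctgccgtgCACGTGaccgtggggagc
Arsa (chr15:89477423-89477452, minus strand): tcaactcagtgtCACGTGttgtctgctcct
Lgmn (chr12:102439124-102439153, minus strand): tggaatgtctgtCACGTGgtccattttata
Gaa (chr11:119267811-119267840, plus strand): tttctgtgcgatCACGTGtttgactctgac

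At 8 mg/kg, 6 of the 43 measured genes passed the threshold of the fit over all genes (limma, Benjamini-Hochberg adjusted p of 0.05), which is 14.0% where 8.01% of all genes passed. Man2b1, Naglu, Mcoln1 and Ctsl were lower, 9.30% of the members where 3.76% of all genes were lower, and Gusb and Gm2a were higher, 4.65% where 4.25% of all genes were higher. Since the members were chosen with these results known, nothing is read from these shares. Differences were small by the probe used for each gene. Only Man2b1 passed 1.5-fold, and the 95% intervals of 33 members lay within 1.5-fold either way, while those of 10 reached it. A second Idua probe, not used here, stood at 0.62, also past 1.5-fold. The median member differed by -0.13 and the median of all genes by -0.03, and 34 of 43 members (79.1%) lay below 0, against 55.2% of all genes.

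**Figure D1:**
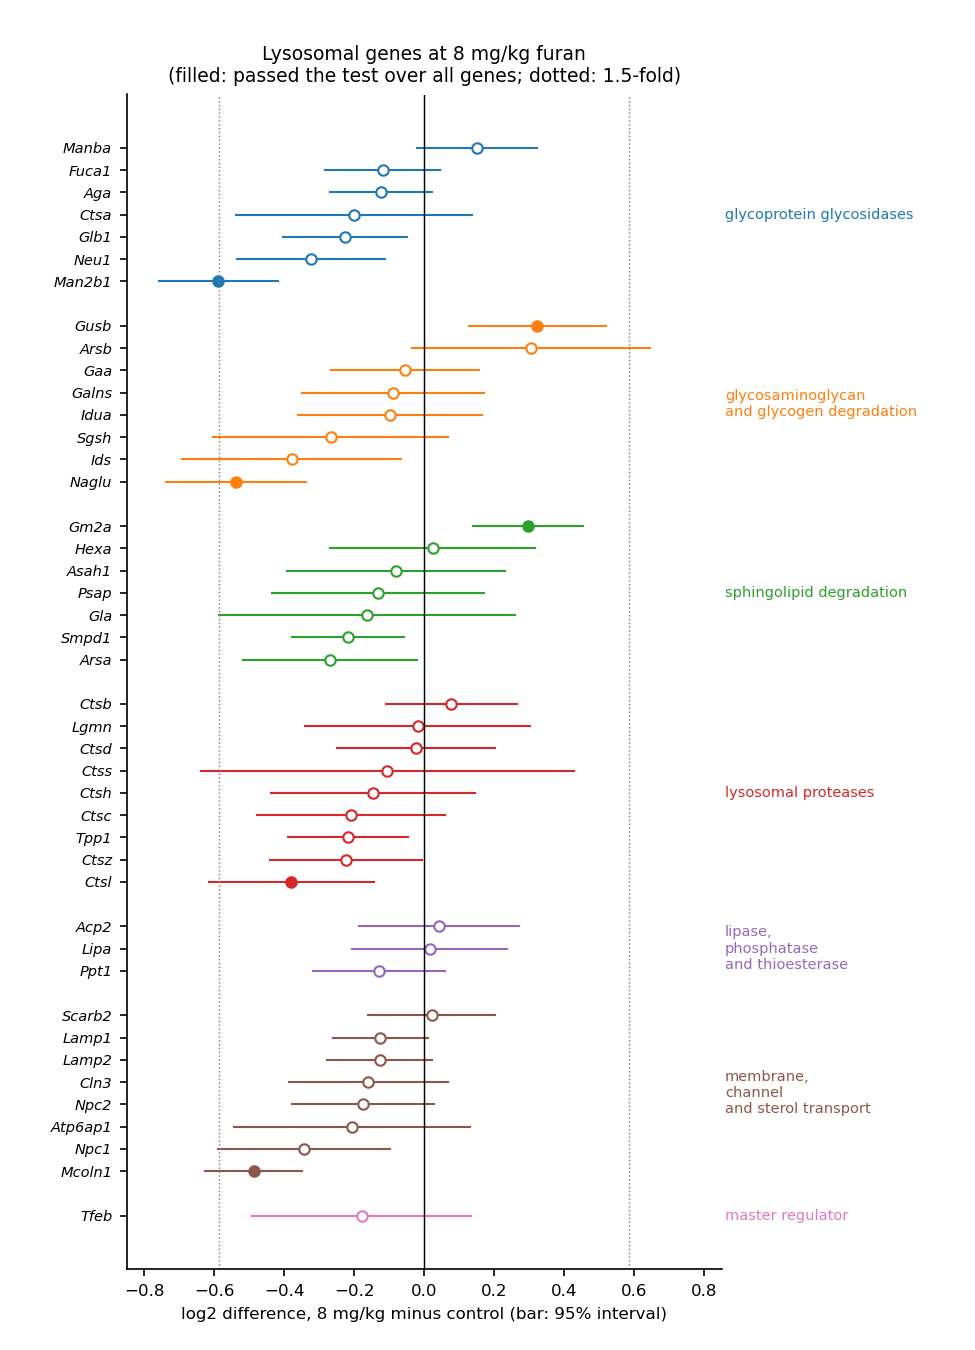
Log2 difference between 8 mg/kg (n = 5) and control (n = 5) for the 43 measured members, grouped by role; bars are 95% intervals, filled points passed the threshold of the fit over all genes and dotted lines mark 1.5-fold. Filled points are Man2b1 at -0.59, Naglu at -0.54, Mcoln1 at -0.49 and Ctsl at -0.38 on the lower side, and Gusb at 0.32 and Gm2a at 0.30 on the higher side.

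Among the 7 genes of the glycoprotein glycosidase group, most of which trim sugar chains from glycoproteins, 6 lay below 0 and Man2b1 alone passed. Man2b1, the lysosomal alpha-mannosidase, read 0.97, 1.10, 1.11, 1.20 and 1.03 in the controls and 0.56, 0.64, 0.24, 0.50 and 0.52 at 8 mg/kg. All 5 treated animals lay below all 5 controls, a difference of -0.59 ± 0.08 (SE) that left 0.665 of the control level. On the 4 slides that held both groups it ranged from -0.86 to -0.44. The next in size were the sialidase Neu1 at -0.32 ± 0.10 and the beta-galactosidase Glb1 at -0.23 ± 0.08, which did not pass, nor did Ctsa, which stabilises both in a complex, at -0.20 ± 0.16. Neu1 was the member nearest to the threshold from outside, at an adjusted p of 0.0551, and Ctsl nearest from inside, at 0.0417 (limma). The fucosidase Fuca1 differed by -0.12 ± 0.08, Aga, which cuts the link between sugar and asparagine, by -0.12 ± 0.07, and the beta-mannosidase Manba by 0.15 ± 0.08. All 5 treated animals had less Aga than any control.

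The 8 genes of glycosaminoglycan and glycogen breakdown split. Naglu, an N-acetylglucosaminidase of heparan sulfate breakdown, read 0.68, 0.78, 0.50, 0.47 and 0.47 in controls and 0.09, 0.12, -0.26, 0.10 and 0.16 at 8 mg/kg. The groups did not overlap, the difference was -0.54 ± 0.10 (0.689 of the control level), and the slides gave -1.04 to -0.32. The lowest treated animal, replicate 3, lay on slide 3, which also gave the value of -1.04; without the arrays of that slide the difference was -0.41 and still passed.

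Gusb, the beta-glucuronidase, often used as a reference gene, went the other way, with -1.78, -2.03, -1.87, -1.80 and -1.85 in controls and -1.52, -1.48, -1.65, -1.52 and -1.55 at 8 mg/kg. Every treated animal lay above every control, by 0.32 ± 0.09 between means (1.25 times the control level), with 0.25 to 0.38 on the slides. Of the heparan and dermatan sulfate enzymes that did not pass, the sulfatase Ids differed by -0.38 ± 0.15, with all treated animals below all controls, and the sulfatase Sgsh by -0.27 ± 0.16. The sulfatase Arsb stood at 0.31 ± 0.16, and at 0.08 by a second probe. The iduronidase Idua (-0.10 ± 0.13), the sulfatase Galns (-0.09 ± 0.12) and the acid alpha-glucosidase Gaa (-0.05 ± 0.10) lay closer to 0, although a second Idua probe stood at 0.62.

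Of the sphingolipid genes, Gm2a, the activator that presents the ganglioside GM2 to hexosaminidase A, was the one past the threshold. It read 2.67, 2.78, 2.54, 2.62 and 2.44 in controls and 2.94, 2.93, 2.87, 2.84 and 2.96 at 8 mg/kg, with no overlap, a difference of 0.30 ± 0.08 (1.23 times the control level) and slide values from 0.09 to 0.39. Hexa, the alpha subunit of that hexosaminidase, differed by 0.02 ± 0.14. The sulfatase Arsa (-0.27 ± 0.12), the acid sphingomyelinase Smpd1 (-0.22 ± 0.08), the alpha-galactosidase Gla (-0.16 ± 0.20), the saposin precursor Psap (-0.13 ± 0.15) and the acid ceramidase Asah1 (-0.08 ± 0.15) did not pass.

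Of the 9 proteases, 8 lay below 0 and Ctsl alone passed. The cysteine protease Ctsl read 1.46, 1.00, 1.03, 1.08 and 1.15 in controls and 0.87, 0.62, 0.93, 0.67 and 0.73 at 8 mg/kg. The treated animals lay below the controls without overlap, at a difference of -0.38 ± 0.11 (0.769 of the control level), with slide values from -0.44 to -0.07. A block term for slide ended the call (-0.34; adjusted p = 0.0613 by limma), and the value shrank to -0.11 from median signals with normexp correction (limma adjusted p = 0.854). The proteases Ctsb (0.08 ± 0.09), Ctsd (-0.02 ± 0.11) and Ctsh (-0.15 ± 0.14) did not pass. Ctsz (-0.22 ± 0.10), the tripeptidyl peptidase Tpp1 (-0.22 ± 0.08), the dipeptidyl peptidase Ctsc (-0.21 ± 0.13), Ctss (-0.11 ± 0.26) and the asparaginyl endopeptidase Lgmn (-0.02 ± 0.15) did not pass either. Ctsd, an aspartic protease that is a common lysosomal marker, ranged over 0.08 to 0.25 in controls and -0.21 to 0.32 at 8 mg/kg, so that the treated range held the control range; its sign turned under other settings, up to 0.058 without slide 3.

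The acid lipase Lipa (0.02 ± 0.11), the acid phosphatase Acp2 (0.04 ± 0.11) and the thioesterase Ppt1 (-0.13 ± 0.09) did not pass.

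In the membrane group 7 of 8 lay below 0. Mcoln1, the mucolipin calcium channel, read 0.55, 0.61, 0.80, 0.76 and 0.80 in controls and 0.21, 0.20, 0.20, 0.26 and 0.23 at 8 mg/kg. The treated animals lay close together and below the lowest control, with a difference of -0.49 ± 0.07 (0.713 of the control level), with -0.54 to -0.41 on the slides. The cholesterol exporter Npc1 differed by -0.34 ± 0.12 and its partner Npc2 by -0.17 ± 0.10. Atp6ap1, an accessory protein of the proton pump, stood at -0.21 ± 0.16 and Cln3 at -0.16 ± 0.11. Lamp1 and Lamp2, the heavily glycosylated coat proteins of the lysosomal membrane, stood at -0.12 ± 0.06 and -0.13 ± 0.07, and Scarb2, the receptor that carries glucocerebrosidase to lysosomes, at 0.02 ± 0.09. Lamp1 had the smallest residual SD of the members, 0.0832, with controls from 2.02 to 2.22 and treated animals from 1.90 to 2.15; its sign turned with median signals, to 0.040 uncorrected and 0.10 with normexp. Tfeb itself read 0.12, 0.32, 0.42, 0.27 and 0.72 in controls and 0.19, 0.09, -0.06, 0.57 and 0.18 at 8 mg/kg, an overlapping difference of -0.18 ± 0.15 that did not pass.

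Counted by animals, 6 members had all 5 treated animals below all 5 controls (Man2b1, Naglu, Mcoln1, Ctsl, Aga and Ids; 14.0%, where 4.31% of all genes did) and 2 had all above (Gusb and Gm2a; 4.65%, where 4.44% did). On all 4 slides with both groups, 20 members were lower (46.5%, against 17.1% of all genes) and 4 were higher (Manba, Gusb, Arsb and Gm2a; 9.30%, against 15.0%). With slide as a block, 6 members passed as lower and 3 as higher, where 11.7% of all genes passed: Smpd1, Tpp1 and Ids joined the lower genes, Arsb joined the higher ones and Ctsl was lost.

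**Figure D2:**
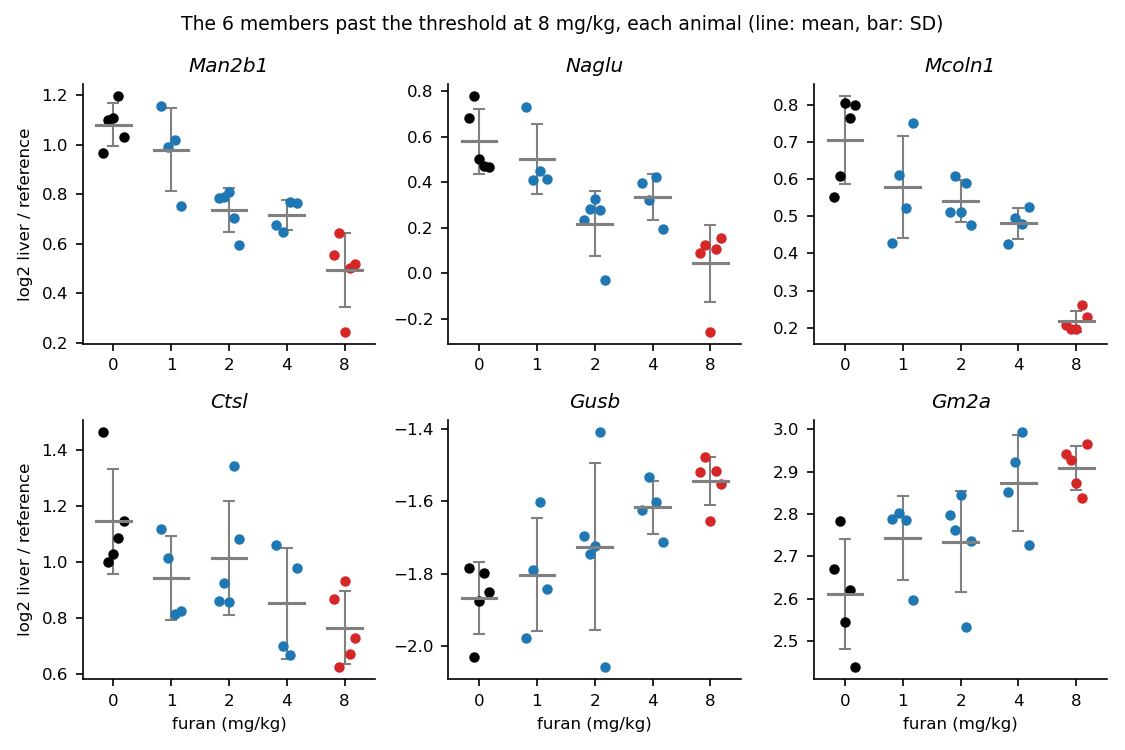
Log2 liver to reference ratio of each animal by furan dose in mg/kg for the 6 members past the threshold at 8 mg/kg; grey lines are group means and bars are SD, with a vertical scale of its own in each panel. In each panel the 5 animals at 8 mg/kg lie clear of the 5 controls, Mcoln1 between 0.20 and 0.26 against 0.55 to 0.80.

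The calls differed in how they held up. Man2b1, Naglu and Mcoln1 passed in all 14 other settings and in all 23 fits that left out 1 array. Gusb passed in 10 of 14 settings and Gm2a in 9, and Ctsl in 5. Gm2a was lost without control replicate 5 (0.25, limma adjusted p = 0.0534). Over the 14 settings its difference ranged from 0.24 to 0.36, and its limma adjusted p reached 0.601. Gusb was lost without any 1 of control replicates 2, 3, 4 and 5 and 8 mg/kg replicates 1, 2, 4 and 5, at differences from 0.28 to 0.34 (limma adjusted p from 0.0508 to 0.0964). Ctsl was lost without any 1 of control replicates 1, 3, 4 and 5, 1 mg/kg replicate 2 and 8 mg/kg replicates 1, 2, 4 and 5, at -0.41 to -0.30 (limma adjusted p from 0.0505 to 0.121).

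At lower doses no member passed in limma, although 1, 8 and 9 of the 43 members at 1, 2 and 4 mg/kg had an unadjusted p under 0.05, as did 3 between 8 and 4 mg/kg. Such a p was found for 701, 1723 and 1770 of all 19898 genes at these doses, and for 1677 between 8 and 4 mg/kg. All dose comparisons share the same 5 controls. Of all genes, 0% passed in the 1 mg/kg group, 0.0101% in the 2 mg/kg group and 0.0804% in the 4 mg/kg group, and 0.206% between the 8 and 4 mg/kg groups. The median member difference was -0.03, -0.07, -0.08 and -0.13 in order of dose, with 27, 30, 32 and 34 of 43 members below 0. Over all genes the medians were -0.01, -0.01, -0.02 and -0.03. The members' medians by animal ranged from -0.08 to 0.04 in controls, from -0.06 to 0.02 in the 1 mg/kg group, from -0.23 to 0.00 in the 2 mg/kg group, from -0.11 to -0.01 in the 4 mg/kg group and from -0.21 to -0.11 in the 8 mg/kg group. All 5 animals at 8 mg/kg were below all controls, and the lowest animal of the study was replicate 5 at 2 mg/kg, on slide 3.

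**Figure D3:**
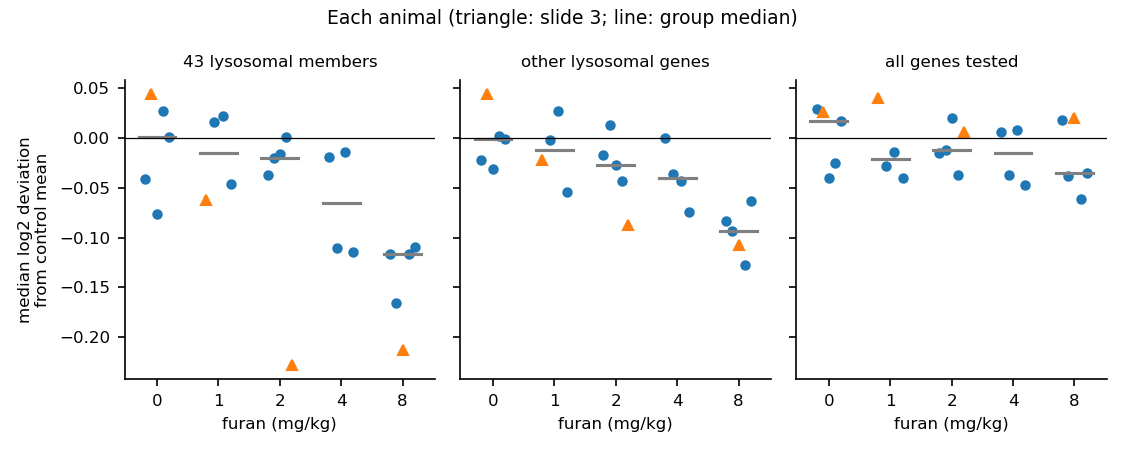
Median log2 deviation from the control mean in each animal, by furan dose in mg/kg, over the 43 members, the 143 other lysosomal genes and all 19898 genes tested; triangles are the arrays of slide 3 and grey lines are group medians. The members' medians at 8 mg/kg lie between -0.21 and -0.11, below the controls at -0.08 to 0.04, and the medians over all genes overlap.

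Mcoln1 stepped down with dose, at -0.13 ± 0.07, -0.17 ± 0.07, -0.22 ± 0.07 and -0.49 ± 0.07 from 1 to 8 mg/kg, where the steps among the lower 3 doses lay within their errors. Man2b1 stood at -0.10 ± 0.09, -0.35 ± 0.08, -0.37 ± 0.09 and -0.59 ± 0.08, and Glb1 was the other member that was lower at each higher dose. Gusb was the member higher at each higher dose, at 0.06 ± 0.10, 0.14 ± 0.09, 0.25 ± 0.10 and 0.32 ± 0.09. Naglu was not ordered, at -0.08 ± 0.10, -0.36 ± 0.10, -0.25 ± 0.10 and -0.54 ± 0.10. By the probe used for each gene, 17 members were below the control mean at all 4 doses and 4 were above it (Manba, Gusb, Arsb and Gm2a). The doses share the same controls, and the share of all genes below at all 4 doses is not given here. At each dose alone, 54%, 52.3%, 55.4% and 55.2% of all genes lay below 0 from 1 to 8 mg/kg. In the fit of a slope on dose, 7 members passed as lower (Man2b1, Neu1, Naglu, Smpd1, Ctsl, Tpp1 and Mcoln1) and 2 as higher (Gusb and Gm2a), where 10.4% of all genes passed, 5.07% lower and 5.32% higher. The lower count was 3 without 8 mg/kg replicate 4 and 4 without control replicate 5.

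Away from the top dose the largest member differences were Arsb at 4 mg/kg, 0.56 ± 0.17, and Ctsc at 2 mg/kg, 0.55 ± 0.13. Arsb passed at 4 mg/kg when slide was a block and in no other setting. A second Arsb probe stood at 0.12, -0.04, 0.32 and 0.08 from 1 to 8 mg/kg. Ctsc read 4.22, 4.22, 4.24, 4.58 and 4.54 at 2 mg/kg against 3.59 to 4.04 in controls, with no overlap, and -0.21 ± 0.13 at 8 mg/kg. Replicate 4 at 2 mg/kg had the neutrophil markers at a mean of 3.62 above control, the highest of any animal, and Ctsc, an activator of neutrophil serine proteases, was 0.49 higher without it. Replicates 3 and 5 at 2 mg/kg also had these markers above every control, at 1.05 and 1.01 against at most 0.38, and leaving out replicate 4 keeps both of them in. Replicates 1 and 2 at 2 mg/kg had the markers at 0.28 and -0.47, not above the highest control, with Ctsc at 4.22 in both. The part of neutrophil RNA in the Ctsc value was not tested.

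**Figure D4:**
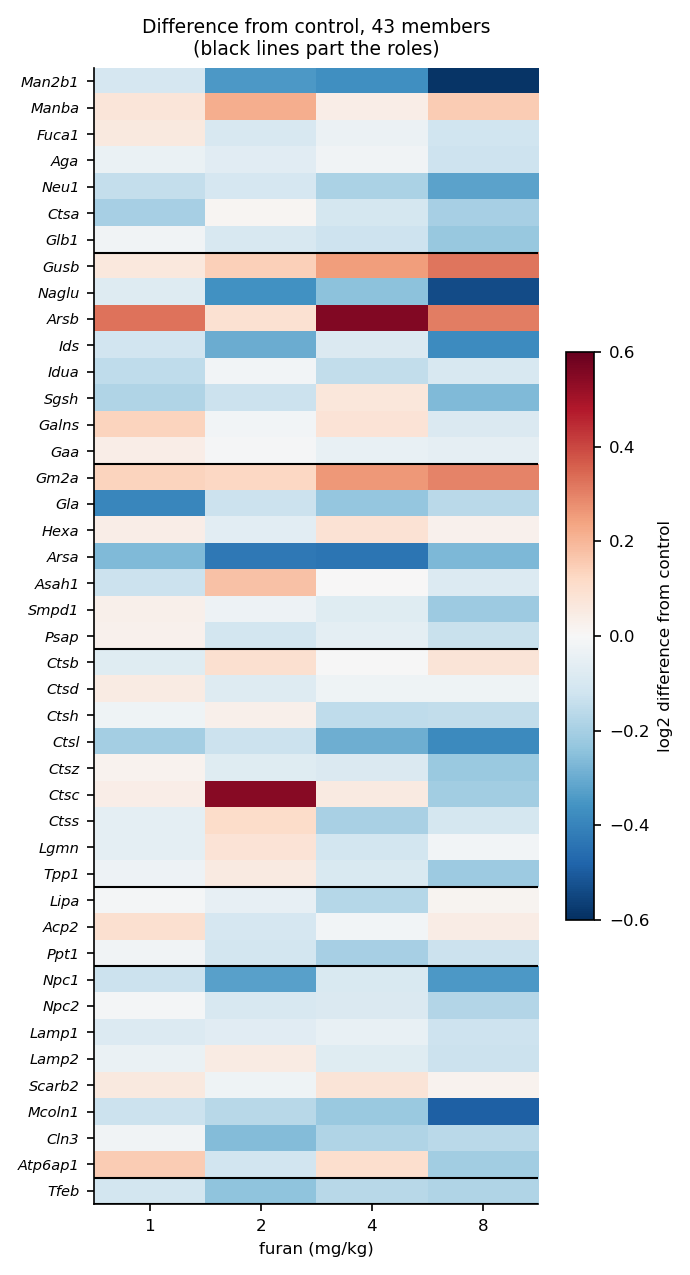
Mean log2 difference from control of the 43 measured members at 1, 2, 4 and 8 mg/kg, blue lower and red higher, with black lines between roles. Man2b1, Naglu and Mcoln1 are deepest at 8 mg/kg, Gusb, Gm2a, Arsb and Manba are red at each dose, and Ctsc at 2 mg/kg and Arsb at 4 mg/kg are the deepest red cells, at 0.55 and 0.56.

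The other genes of the pathway, 152 listed by function and 143 of them tested, had 20 past the threshold at 8 mg/kg (14.0%, where 8.01% of all genes passed), 5 higher and 15 lower. None passed at 1, 2 or 4 mg/kg by limma, with 2, 15 and 17 at an unadjusted p under 0.05. Such a p was found for 701, 1723 and 1770 of all 19898 genes at these doses. The median was -0.09 and 72.7% lay below 0. The lower count changed with the setting and with the array left out. How many of all genes passed in each of these fits is not given here, so whether the changes are particular to these genes is not shown. It was 4 from median signals, with or without normexp correction, and 4 after scaling between arrays, and 6 without control replicate 2. It was 7 when control replicate 4 was left out, or replicate 2 or 4 at 8 mg/kg, 8 when replicate 3 of either group was left out, and 9 when replicate 5 of either was.

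Of 30 further hydrolases and cofactors, 2 rose and 4 fell. The protease Ctso rose by 0.57 ± 0.17 and the carboxypeptidase Prcp by 0.41 ± 0.09, and the dipeptidase Dpp7 fell by 0.50 on the log2 scale (SE 0.10). Of 30 membrane proteins 4 fell, among them the chloride-proton exchanger Clcn7 at -0.51 ± 0.14 and the peptide transporter Slc15a4 at -0.49 ± 0.11, with Cln8 at -0.31 ± 0.09 and the channel Tmem175 at -0.27 ± 0.08. Of 16 proton pump subunits 1 passed, Atp6v0e2, higher by 0.79 ± 0.16.

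The group of Tfeb's relatives and the kinase complex that holds them in the cytoplasm, 19 genes tested, had 1 rise and 1 fall. Tfe3, a close relative of Tfeb, rose by 0.53 ± 0.08, from -0.28 to -0.07 in controls to 0.28 to 0.51 at 8 mg/kg, with no overlap. Fnip1, a partner of folliculin, was lower by -0.37 ± 0.10. Of 31 autophagy genes 6 fell and 1 rose: Gabarapl1 (-0.54 ± 0.16), Atg14 (-0.43 ± 0.09) and Bnip3 (-0.40 ± 0.11) were lower, as were Map1lc3a, Map1lc3b and Atg10, and Atg12, the ubiquitin-like conjugate of Atg5, was higher (0.44 ± 0.07). None of 17 genes of mannose 6-phosphate tagging and sorting passed, with Vps11 at -0.26 ± 0.09 and Vps26a at -0.16 ± 0.06. Of these 17, 3 had an unadjusted p under 0.05, where 4168 of all 19898 genes had one. Dpp7, Atp6v0e2, Tfe3 and Atg12 passed in all 14 other settings and all 23 fits that left out 1 array, whereas several of the other calls held in few settings. Tmem175 passed in 4 of the 14 settings, Cln8, Gabarapl1 and Atg10 in 5, Bnip3 in 6, and Ctso, Fnip1 and Map1lc3a in 7.

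**Figure D5:**
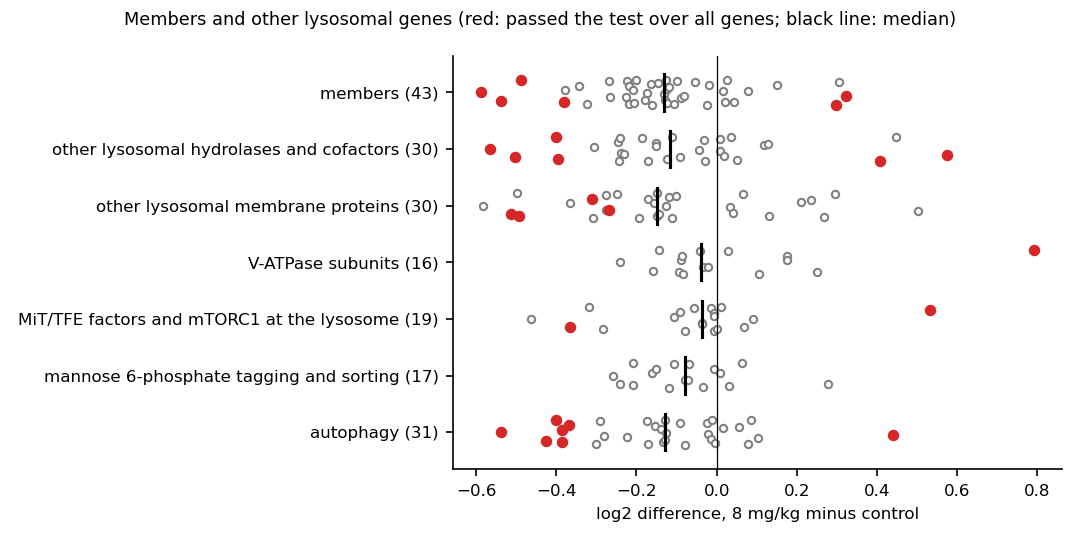
Log2 difference between 8 mg/kg and control for each gene of the members and of 6 further lysosomal lists, with red points past the threshold of the fit over all genes and black lines at list medians. Atp6v0e2 at 0.79 and Tfe3 at 0.53 lie far to the right, and the list medians lie between -0.15 and -0.04.

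Members with an E-box in their promoter window, 13 measured, differed by a median of -0.20 at 8 mg/kg, from -0.54 to -0.02, and all 13 lay below 0, although Ctsd and Lamp1 lay above it under some other settings. The 24 measured members with a window but no E-box had a median of -0.13, from -0.59 to 0.32, and 16 of them lay below 0. The letters shown above for Naglu, Ctsl and Mcoln1 belong to 3 of the 4 lower members. Man2b1, Gusb and Gm2a had no CACGTG in their windows. This split of chosen genes was not tested.

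Cell type markers were read beside these values. Liver markers were present, with Alb at 6.78 over the reference and the Kupffer cell lectin Clec4f at 7.93 in controls. None of 15 tested Kupffer cell and macrophage markers, of 18 listed, passed in limma at 8 mg/kg (1 with an unadjusted p under 0.05, Trem2 at 0.50 ± 0.18), and their mean ranged from -0.19 to 0.38 across treated animals and -0.25 to 0.34 across controls. None of 9 hepatocyte markers passed in the main fit (0 with an unadjusted p under 0.05, Cyp2e1 at -0.34 ± 0.27 and Apob at -0.25 ± 0.43). With slide as a block, 1 hepatocyte marker passed as lower, where 1143 of all 19898 genes did. Of 8 endothelial markers 2 fell, Eng by 0.47 (SE 0.14) and Clec14a by 0.48 (SE 0.15), and a block term for slide ended both calls (adjusted p = 0.0712 for either, limma), with means of -0.62 to 0.07 in treated animals and -0.19 to 0.32 in controls. None of 8 stellate, 3 cholangiocyte, 5 T and NK, 3 neutrophil, 3 erythrocyte, 4 pancreas and 3 B or plasma cell markers passed in limma, and 0 had an unadjusted p under 0.05. On the dose slope 1 Kupffer cell or macrophage marker passed as higher and no other marker passed, where 10.4% of all genes did. All 8 endothelial markers had a slope below 0, and 3 had an unadjusted p under 0.05, where 4558 of all 19898 genes had one. Pancreatic transcripts were 2.09 above control in 8 mg/kg replicate 5 and 2.60 to 3.11 in 3 animals at 2 and 4 mg/kg; without these 4 arrays 3 members were lower and 1 was higher at 8 mg/kg. Hepatocyte markers were 0.98 higher on slide 3, where the members' median shift was -0.06, and without its arrays 5 members were lower and 2 higher. The part of cell composition in the members' differences was otherwise not tested.

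Relative to the pooled reference, 30 members had a higher mean in control liver and 13 a lower one, from -1.87 for Gusb to 6.68 for Ctsh. Every control lay above the reference for 25 members and below it for 10. With no dye swap, these ratios are open to dye bias. These are ratios of each probe to itself and do not rank the genes by abundance. The members' spread within groups had a median residual SD of 0.168 against 0.236 for all genes, and was largest for Ctss, at 0.424. All 43 members were well above background on all 23 arrays, which was not required of all genes, so the sets differ in signal. Across the 23 arrays, deviations from group means correlated at a median of 0.11 over 903 pairs. The highest were 0.92 for Ctsd with Npc2, 0.90 for Ctss with Lgmn and 0.90 for Sgsh with Gla. The lowest was -0.75, for Ctsa with Ctsh. Ctss and Lgmn were both highest of their group in control replicate 4 (0.59 and -0.18) and 2 mg/kg replicate 4 (0.54 and 0.17). Ctsd and Npc2 were both lowest of their group in 2 mg/kg replicate 5 (-0.37 and -1.44) and 8 mg/kg replicate 3 (-0.21 and -1.51), both on slide 3. How far these arrays carry the correlations was not tested. Values of 1 array share its hybridisation and slide.

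For 11 members a second probe was kept, and 10 of these had the sign of the probe used at 8 mg/kg, with a median gap of 0.08. Idua was the exception, at -0.10 with the brighter probe and 0.62 with the other.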

How the data were processed

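Liver RNA of 23 mice was hybridised on 2-colour Agilent arrays, 1 per animal, with no dye swap; the series text counts more samples than the arrays analysed here. The authors scanned each array and extracted 62976 spots with Feature Extraction 10.7.3.1, per the file headers. The deposited processed signals are intensities on a linear scale, background-subtracted and dye-normalised by that software, per the file headers; the deposited median signals are raw intensities. The deposited value table holds linear ratios of Cy5 over Cy3, whose normalization is not given in the sources used here; column medians were 0.974 to 0.987, and in log2 they followed loess-normalised median signals with correlations of 0.995 to 0.996.

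Log2 of processed Cy5 over Cy3 was loess-normalised within each array (span 0.3, 4 iterations, control and marked spots at weight 0). Probes were kept where 4 or more arrays of a group had Cy5 well above background (25574 of 55681), and the brightest probe stood for a gene. An array had 22006 to 30120 such probes and no saturated Cy5 spot; the number of arrays limits the precision. Systematic names matched symbols in a GRCm38.p6 table for 26413 probes. Groups were compared with limma 3.58.1 (R 4.3.3) over all 23 arrays, two-sided, with Benjamini-Hochberg adjustment over 19898 genes and a threshold of 0.05. The p-values measure the spread between these animals together with that between slides, since the main fit had no term for slide. The code was tested on simulated data. Replicate numbers were not treated as pairs in the main fit. The arrays lay on 5 slides; slide 2 held no control.

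The members and gene lists were chosen with earlier results of these data known. Animal values are given for members past the threshold at any dose and for Tfeb, Mcoln1, Lamp1 and Ctsd; all members are given at 8 mg/kg. Of each further list up to 4 genes past the threshold are named by size, or 2 with the smallest p where none passed; Map1lc3a, Map1lc3b and Atg10, and Arsb and Ctsc at lower doses, were named after their values were seen. A gene that this rule would name is not reported here. Alternatives were other background corrections and scalings, the deposited ratios, filters, probe choice, slide and replicate blocks, and leaving out arrays.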

Additional observations from a re-analysis of the deposited data

Results flagged for a closer look

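In 23 of 215 groups of animals and members, 1 animal stood apart from the rest of its group, where chance gives about 1 in 20, and 11 of the 23 values came from slide 3. Values are log2 liver to reference ratios, with the range of the other animals of the group in parentheses. On slide 3, 2 mg/kg replicate 5 had Fuca1 at 1.11 (others 1.36 to 1.44), Aga at -0.29 (others -0.10 to -0.06), Naglu at -0.030 (others 0.24 to 0.32), Psap at -0.63 (others -0.04 to 0.15), Atp6ap1 at -1.18 (others -0.43 to -0.14) and Tfeb at -0.37 (others 0.19 to 0.37). On slide 3, 1 mg/kg replicate 1 had Aga at -0.35 (others -0.01 to 0.02), Naglu at 0.73 (others 0.41 to 0.45) and Lamp2 at 2.59 (others 2.90 to 2.91). On slide 3, 8 mg/kg replicate 3 had Naglu at -0.26 (others 0.09 to 0.16) and Ctsb at 1.59 (others 1.24 to 1.34). On slide 1, 4 mg/kg replicate 1 had Aga at 0.028 (others all near -0.10) and Ctsh at 6.83 (others 6.41 to 6.47). On slide 1, control replicate 4 had Ctss at 0.59 (others -0.90 to -0.52). On slide 1, 1 mg/kg replicate 2 had Ppt1 at -1.22 (others -1.65 to -1.60). On slide 4, 1 mg/kg replicate 4 had Gm2a at 2.60 (others 2.79 to 2.80). On slide 4, 4 mg/kg replicate 4 had Ctsb at 1.34 (others 1.23 to 1.24) and Tfeb at -0.19 (others 0.32 to 0.36). On slide 4, 2 mg/kg replicate 4 had Lgmn at 0.17 (others -0.87 to -0.67). On slide 4, control replicate 3 had Tpp1 at 1.15 (others 1.32 to 1.39). On slide 5, control replicate 1 had Neu1 at -0.33 (others -0.02 to 0.08). On slide 5, 4 mg/kg replicate 3 had Glb1 at -0.95 (others -1.31 to -1.25). On slide 5, 8 mg/kg replicate 1 had Cln3 at 1.28 (others 0.92 to 1.01).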

How the results depend on the processing

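Man2b1, Naglu and Mcoln1 stayed past the threshold at 8 mg/kg in all 14 other settings and all 23 fits without 1 array. Against 4 lower and 2 higher members, the higher count was 1 from median signals without background correction, from the deposited ratios, from only the 2 groups compared, without the 4 pancreas-rich arrays and with the replicate block, and 0 with scaling between arrays or no filter on dim probes. The median member difference of -0.13 was -0.084 from uncorrected median signals, -0.082 without loess and -0.056 with normexp. Of the other lysosomal genes, 15 lower at first, 4 were lower with median signals, normexp or scaling, 5 without loess or without the filter, 7 with the deposited ratios or only the groups compared, and 8 without slide 3. On the dose slope the 7 lower members became 3 with median signals, normexp, the deposited ratios, no loess or no filter, and 4 with scaling; the 2 higher became 1 with median signals or the deposited ratios and 0 with scaling. With slide as a block 1 member (Arsb) passed at 4 mg/kg, where 47 of all genes passed as higher and 17 as lower. For the other settings and fits the number of all genes passing is not given here. Whether the counts moved more than over all genes is therefore not shown. Leaving out 1 array at a time gave 0 to 2 higher and 3 to 5 lower members, medians from -0.16 to -0.12, 6 to 17 lower and 4 to 6 higher other genes, 3 to 9 lower and 2 higher on the slope, and 0 members at the other doses.

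Directions near 0 were not firm. Lamp1 turned to 0.040 with uncorrected median signals and 0.10 with normexp. Ctsd turned to 0.034 with normexp, 0.043 without loess, 0.058 without slide 3, 0.0042 without control replicate 3 and 0.054 without 8 mg/kg replicate 3, in a range from -0.076 to 0.054 over the fits without 1 array. The cause was not tested in any of these. Animals with the same replicate number correlated at a median of 0.02 (-0.24 to 0.40), and those with different numbers at -0.04. Such correlations cannot settle whether the numbers pair animals. The replicate block lost Gusb and no other of the 6 members. Animals on the same slide correlated at a median of 0.22, and those on different slides at -0.07.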
